A study of Mus musculus with 4 samples.

Results

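The distal chromosome 2 zinc finger cluster is a run of related genes near the end of mouse chromosome 2. Its members were the genes listed on chromosome 2 with a start between 174500000 and 178000000 (positions of GRCm39) and with at least 1 read in the 4 libraries together. This gave 40 of the 25655 genes in the deposited table, out of 48 genes listed in the window, of which 8 had no read. The window was chosen by the measured log2 fold changes of HFD-KO over HFD-WT livers, because 2210418O10Rik rose and Gm14296 fell there. The values of these genes are therefore given as a description, with no test, and the number of other members called in the same comparison supports nothing about the cluster.

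Liver RNA was sequenced from male mice that had eaten a high-fat diet (HFD) since the age of 5 weeks, for 12 weeks in all. The HFD-WT mice were ADAR2+/+/GluR-B R/R and the HFD-KO mice were ADAR2-/-/GluR-B R/R, with 2 libraries per group. ADAR2, encoded by Adarb1, is an enzyme that turns adenosine into inosine in RNA, and the GluR-B R/R allele, which both groups carried, holds the already edited codon and spares mice without ADAR2 an early death. Both genotypes were bred by crossing heterozygotes of the B6129S background. How many mice stand behind a library is not stated, and a figure legend of the study names more mice per group than there are libraries, so p-values measure only the spread between these libraries. The authors counted 28691330 and 26907857 reads in the HFD-WT and 26540624 and 24480798 reads in the HFD-KO libraries. With this depth 3 reads, taken as the smallest amount a library could show, stood for 0.105 to 0.123 CPM (counts scaled to library size), a limit that covers counting error only. All other CPM values use the library size adjusted by TMM, a scaling factor per library. Hepatocyte markers, 6 genes that check the labelled tissue, summed to 71527 to 85755 CPM in a library. Adarb1 had 454 and 545 reads in HFD-WT against 164 and 228 reads in HFD-KO livers (log2 fold change -1.17 ± 0.20 SE, edgeR adjusted p = 0.159), so both libraries labelled KO still held reads on it.

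C2H2 zinc finger proteins bind DNA through fingers in a row, in each of which a pair of cysteines and a pair of histidines hold a zinc ion. Many of them start with a KRAB box, a short domain that recruits the corepressor TRIM28 (also called KAP1), which brings the histone methyltransferase SETDB1 and HP1 proteins to the bound site. KRAB zinc finger proteins are best known for silencing transposable elements. Their genes lie in clusters that grow by duplication, so neighbours often differ little in sequence. The transcripts of the members were read from GENCODE M21, where all 40 had an entry. A C2H2 finger was searched as a pair of cysteines with 2 residues between them, 12 residues, and a pair of histidines with 3 to 5 residues between them, and 35 of the 40 members (87.5%) held at least 3 such patterns in a translated frame, against 89.7% of 341 tested zinc finger genes elsewhere and 3.52% of all 12967 genes tested. The members had a median of 11 and at most 25 patterns, reached by Gm14295. The 5 members with none were Zfp968-ps, Gm14327, Zfp972, Phactr3, which encodes a phosphatase and actin regulator, and Sycp2, which encodes a protein of the meiotic synaptonemal complex.

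Several members begin their open reading frame alike. The first 90 coding bases of 7 members, from transcripts of GENCODE M21, are shown because they encode the start of the KRAB box in nearly the same letters, and capitals mark the bases that differ from 2210418O10Rik.
2210418O10Rik: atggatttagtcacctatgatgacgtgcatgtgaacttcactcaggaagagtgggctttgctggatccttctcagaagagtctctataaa
Gm14296: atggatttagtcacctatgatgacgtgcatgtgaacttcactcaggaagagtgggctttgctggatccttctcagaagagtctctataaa
Gm14391: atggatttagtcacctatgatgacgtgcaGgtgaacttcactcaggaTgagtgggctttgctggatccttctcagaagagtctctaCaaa
Gm14288: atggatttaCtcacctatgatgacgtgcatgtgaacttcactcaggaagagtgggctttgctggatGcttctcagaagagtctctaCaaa
Gm4631: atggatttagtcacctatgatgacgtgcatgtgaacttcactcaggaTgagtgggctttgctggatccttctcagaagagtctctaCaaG
Gm14295: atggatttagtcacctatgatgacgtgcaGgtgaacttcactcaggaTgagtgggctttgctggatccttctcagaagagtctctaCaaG
Gm14418: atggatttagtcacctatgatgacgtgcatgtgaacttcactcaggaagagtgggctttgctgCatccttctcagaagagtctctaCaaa
Gm14296 had 0 bases that differed from 2210418O10Rik, Gm14418 had 2, Gm14391, Gm14288 and Gm4631 had 3 each, and Gm14295 had 4. For each gene the annotated transcript whose start differed least from 2210418O10Rik was taken. Beside Gm14296, only the gene with the most reads in each other group of similar genes, defined below, was compared. The annotated frames of Zfp966 and Zfp973, not shown, begin with other letters: compared base by base without alignment, they differed at 62 and 66 of the 90 bases. The frame of Zfp973 starts further upstream, and its 90 bases end in the same letters that open Gm14288. Its count of 66 therefore reflects a shifted start and does not mean that Zfp973 lacks the shared letters. The 90 bases taken for Zfp966 did not hold them. Whether they occur further along that transcript or in another annotated transcript of Zfp966 was not tested. The gene itself was therefore not shown to lack the shared letters.

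The members that chose the window stood at similar levels in HFD-WT livers and far apart in HFD-KO livers. 2210418O10Rik (ENSMUSG00000078894, chromosome 2, 175968362 to 175982121, plus strand), a zinc finger gene without a gene name of its own, had 227 and 222 reads in HFD-WT against 397 and 408 reads in HFD-KO livers. These were 7.84 and 8.07 CPM against 15.1 and 17.1 CPM, a log2 fold change of 1.01 ± 0.11 SE. Both HFD-KO libraries thus lay well above both HFD-WT libraries. Gm14296 (ENSMUSG00000074527, chromosome 2, 176584302 to 176619602, minus strand), the other predicted zinc finger gene of the pair, had 274 and 237 reads in HFD-WT against 70 and 39 reads in HFD-KO livers. Its level was 9.46 and 8.61 CPM against 2.66 and 1.63 CPM, a log2 fold change of -2.06 ± 0.23 SE, and both HFD-KO libraries lay far below both HFD-WT libraries. In absolute terms 2210418O10Rik differed by 8.12 CPM and Gm14296 by -6.89 CPM between the group means, HFD-KO minus HFD-WT.

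The opposite differences of the pair largely cancelled in their sum. Together both genes held 501 and 459 reads in HFD-WT against 467 and 447 reads in HFD-KO livers, which was 17.0 ± 0.43 CPM (SD, n = 2) against 18.2 ± 0.69 CPM. Counted as 1 feature in the same fit, the pair had a log2 fold change of 0.10 ± 0.09 SE. What differed between the groups was the split of these reads. Gm14296 took 54.7% (95% exact binomial interval 50.2 to 59.1) and 51.6% (47.0 to 56.3) of the reads of the pair in HFD-WT livers. Its share was 15% (11.9 to 18.6) and 8.72% (6.28 to 11.7) in HFD-KO livers, and the intervals cover counting error only.

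**Figure D1:**
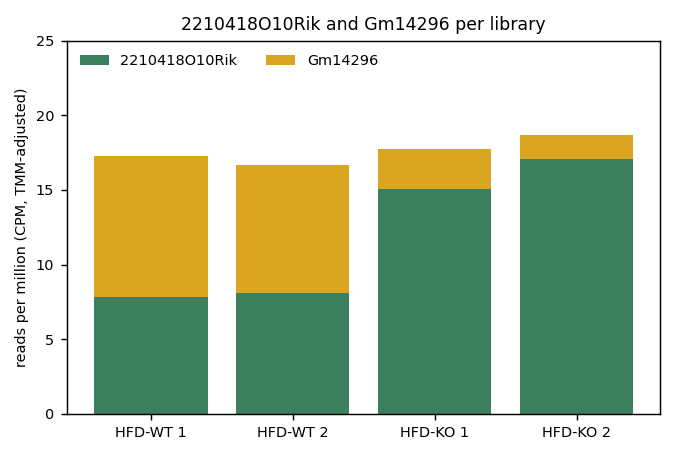
Level of 2210418O10Rik (green) and Gm14296 (yellow) in CPM, stacked, in each of the 4 libraries. The stacks have about the same height in every library, 16.7 to 18.7 CPM, while the yellow part shrinks from 9.46 and 8.61 CPM in HFD-WT to 2.66 and 1.63 CPM in HFD-KO livers.

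The annotated transcripts of this pair cannot be told apart over the whole of 2210418O10Rik. Cut into all stretches of 100 bases, the length of a sequenced read, 2210418O10Rik held 3932 stretches and every one of them also occurred in a transcript of Gm14296. In the other direction, 40.7% of the 9865 stretches of Gm14296 occurred in another member. The transcripts 2210418O10Rik-201 and Gm14296-201 were each 3823 bases long with 0 differing bases, and 2 more transcript pairs, of 2314 and 750 bases, also had 0 differing bases. By this annotation, a read that falls in this sequence has no letters that assign it to either gene, and how such reads were treated in the counting is not stated in the sources used here. A difference in what the loci transcribed and a difference in where shared reads were counted cannot be told apart in these values. In these bulk livers, a lower level of RNA per cell and a smaller number of cells with the RNA cannot be told apart either.

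Sharing of this kind ran through the cluster. Of the 40 members, 23 shared at least 50% of their 100-base stretches with other members, 4 shared all of them and 3 shared none. Counting matches to any gene of the annotation, the median share was 68.5% for the members, and 62.5% of them shared at least 50%, against 2.35% of the tested zinc finger genes elsewhere and 2.44% of all genes tested. When members were joined wherever they shared at least 50% of the stretches of the smaller one, 8 sequence classes of 2 or more genes held 24 members and 16 members stayed alone. This grouping by sequence was chosen after the values had been seen, although it uses no read count. The 4 members with every stretch in another member were 2210418O10Rik, Gm14440, Gm2004 and Zfp967. All these shares describe the transcripts of GENCODE M21, which can differ from the gene models that were counted. Zfp967 had 1677 stretches there against 3338 exon bases in its counted model, so part of the counted sequence was not compared.

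**Figure D2:**
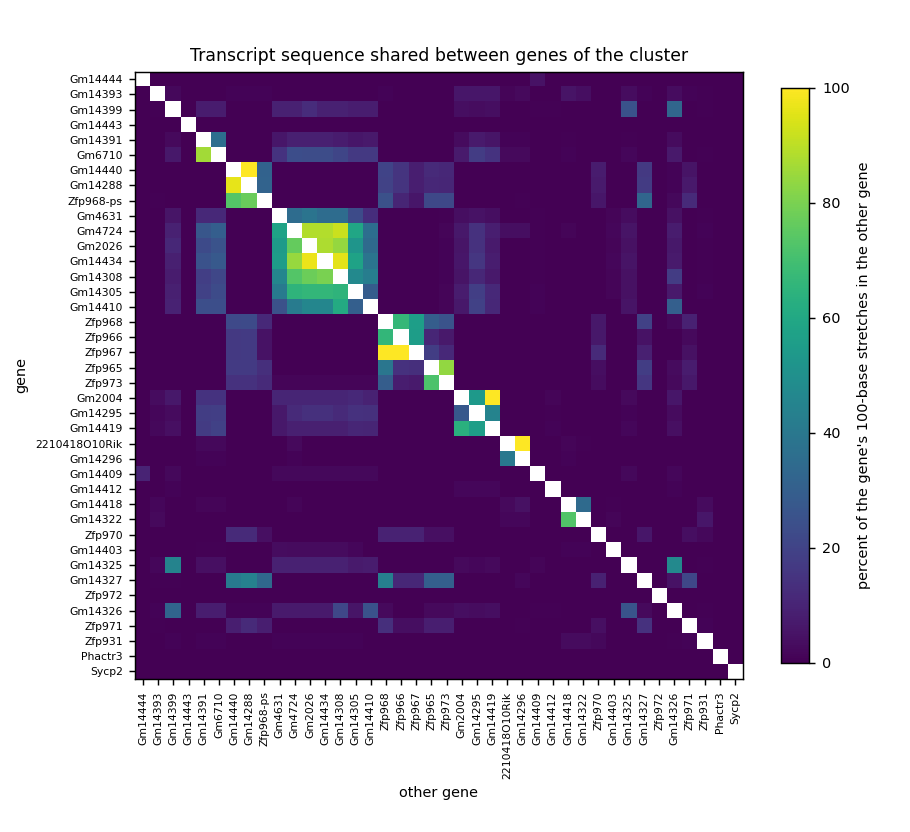
Percent of the 100-base transcript stretches of each gene (vertical axis) that also occur in each other gene (horizontal axis), for the 40 members ordered by sequence class. Bright blocks along the diagonal are the 8 classes, and 2210418O10Rik has all of its stretches in Gm14296.

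The largest class held 7 genes, Gm4631, Gm4724, Gm2026, Gm14434, Gm14308, Gm14305 and Gm14410. Within it the 1497-base transcripts of Gm14434, Gm2026 and Gm4724 had 0 differing bases, while that of Gm14305 differed from them at 7 bases (99.5% identity). Bases 893 to 982 of these transcripts, which encode part of the finger array, are shown because no other coding stretch of this length holds more differing positions, and capitals mark the 2 positions that differ.
Gm14305: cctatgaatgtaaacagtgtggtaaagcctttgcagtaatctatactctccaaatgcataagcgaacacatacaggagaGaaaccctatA
Gm14434: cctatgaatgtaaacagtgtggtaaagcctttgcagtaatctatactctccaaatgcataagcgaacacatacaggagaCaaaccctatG
Gm2026: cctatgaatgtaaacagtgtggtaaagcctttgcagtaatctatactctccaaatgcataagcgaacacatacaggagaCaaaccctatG
Gm4724: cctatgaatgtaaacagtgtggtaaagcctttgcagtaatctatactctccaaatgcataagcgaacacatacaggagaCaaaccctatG
Outside these positions a 90-base read of the stretch would be the same for all 4 genes.

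The reads of single genes in this class differed between libraries of the same group. Gm2026 had 0 and 15 reads in HFD-WT against 16 and 0 reads in HFD-KO livers, so each group held a library with none. Gm14308 had 51 and 0 reads in HFD-WT against 33 and 6 reads in HFD-KO livers. Gm4724 went the other way in the same libraries, with 8 and 29 reads in HFD-WT against 11 and 38 reads in HFD-KO livers. The counts of Gm14308 were thus high where those of Gm4724 were low, in replicate 1 of both groups. Gm4631, the member of this class with the most reads, had 7.52 and 5.31 CPM in HFD-WT against 6.34 and 8.08 CPM in HFD-KO livers. Gm14434 had 1.14 and 2.22 CPM in HFD-WT against 2.54 and 2.09 CPM in HFD-KO livers. Gm14410 had 1.76 and 0.872 CPM in HFD-WT against 1.25 and 2.18 CPM in HFD-KO livers. In these 3 genes, predicted C2H2 zinc finger genes like the rest of the class, the groups overlapped. Gm14305 was the exception, with 2.42 and 2.22 CPM in HFD-WT above 1.90 and 1.51 CPM in HFD-KO livers (log2 fold change -0.44 ± 0.26 SE, edgeR adjusted p = 0.669). Its locus overlaps that of Zfp973 on the same strand for 10758 bases, so their reads may not be fully separate.

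Added up, the class varied less between replicates than most of its genes. A sum holds more reads than each of its genes and has a smaller relative counting error, so this was in part fixed in advance. The 7 genes together had 431 and 336 reads in HFD-WT against 377 and 375 reads in HFD-KO livers. This was 13.5 ± 1.9 CPM (SD, n = 2) against 15 ± 0.98 CPM, a log2 fold change of 0.15 ± 0.12 SE. The single genes had log2 fold changes from -0.44 for Gm14305 to 0.58 for Gm4724, and the standard errors were 0.75 for Gm4724, 1.20 for Gm14308 and 1.40 for Gm2026.

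Another class joined Gm14288, Gm14440 and Zfp968-ps. All stretches of Gm14440 occurred in Gm14288, and its reads appeared in 1 library only, with 0 and 0 reads in HFD-WT against 0 and 17 reads in HFD-KO livers. In that same library Gm14288, a predicted zinc finger gene, was at its lowest, with 2.80 and 2.87 CPM in HFD-WT against 3.30 and 1.97 CPM in HFD-KO livers. Zfp968-ps, listed as a pseudogene by its name, had 24 and 22 reads in HFD-WT against 21 and 19 reads in HFD-KO livers, with a log2 fold change of -0.03 ± 0.36 SE. The class as a whole had 105 and 101 reads in HFD-WT against 108 and 83 reads in HFD-KO livers, with a log2 fold change of 0.06 ± 0.20 SE.

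Zfp966, Zfp967 and Zfp968 formed a class of 3 genes that did not follow one pattern. Transcripts of 733 bases of Zfp966 and Zfp968 had 0 differing bases, and every stretch of the GENCODE M21 transcripts of Zfp967 occurred in both genes. Zfp968 had 13 and 0 reads in HFD-WT against 8 and 18 reads in HFD-KO livers. Zfp967 (ENSMUSG00000095199, 176212793 to 176225578, plus strand) had 27 and 20 reads in HFD-WT against 12 and 4 reads in HFD-KO livers, lower in both HFD-KO libraries (log2 fold change -1.38 ± 0.53 SE, unadjusted p = 0.035, edgeR adjusted p = 0.511). Zfp966 had 14 and 14 reads in HFD-WT against 21 and 15 reads in HFD-KO livers, higher in both HFD-KO libraries once scaled to depth (log2 fold change 0.52 ± 0.42 SE). These 3 C2H2 zinc finger genes together had 54 and 34 reads in HFD-WT against 41 and 37 reads in HFD-KO livers, or 1.55 ± 0.44 CPM (SD, n = 2) against 1.55 ± 0.0058 CPM.

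The remaining classes had few reads. Zfp965 and Zfp973, zinc finger genes whose 1271-base transcripts had 0 differing bases, had 63 and 49 reads in HFD-WT against 49 and 37 reads in HFD-KO livers in sum. Zfp965 alone had 1.10 and 0.799 CPM in HFD-WT against 0.873 and 0.753 CPM in HFD-KO livers. Zfp973 alone had 1.07 and 0.981 CPM in HFD-WT against 0.987 and 0.795 CPM in HFD-KO livers. In both of them the lower HFD-WT library lay below the higher HFD-KO library. Gm14391 had 1.59 and 1.35 CPM in HFD-WT against 1.10 and 1.84 CPM in HFD-KO livers. Its partner Gm6710 had 0.656 and 1.02 CPM in HFD-WT against 1.29 and 0.963 CPM in HFD-KO livers. These predicted zinc finger genes, with 0 differing bases over a pair of 1665-base transcripts, summed to 65 and 65 reads in HFD-WT against 63 and 67 reads in HFD-KO livers (log2 fold change 0.17 ± 0.23 SE). The number of reads on this class was nearly the same in every library. Before scaling, Gm6710 had its lowest count, 19 reads, in HFD-WT replicate 1, where Gm14391 had its highest, 46 reads. In CPM this match did not hold, since Gm14391 was highest in HFD-KO replicate 2. Gm14295, with the longest finger array, had 1.80 and 1.35 CPM in HFD-WT against 1.79 and 1.47 CPM in HFD-KO livers. With Gm14419 and Gm2004, which held 34 and 20 reads in all and were not tested, it summed to 59 and 46 reads in HFD-WT against 59 and 61 reads in HFD-KO livers (log2 fold change 0.37 ± 0.25 SE). The sum was higher in both HFD-KO libraries, and Gm14295 alone overlapped between the groups. Gm14418 had 0.725 and 1.05 CPM in HFD-WT against 1.03 and 0.586 CPM in HFD-KO livers. With Gm14322, which had 18 and 6 reads in HFD-WT against 10 and 8 reads in HFD-KO livers, it summed to 39 and 35 reads in HFD-WT against 37 and 22 reads in HFD-KO livers. Over the 8 classes, the summed CPM did not overlap between the groups for 3, all higher in HFD-KO livers. These were the classes of Gm14391, of Gm14295 and of 2210418O10Rik, the last of which holds the pair that chose the window. Of all genes tested, 40.8% did not overlap, and 20.5% were higher without overlap.

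**Figure D3:**
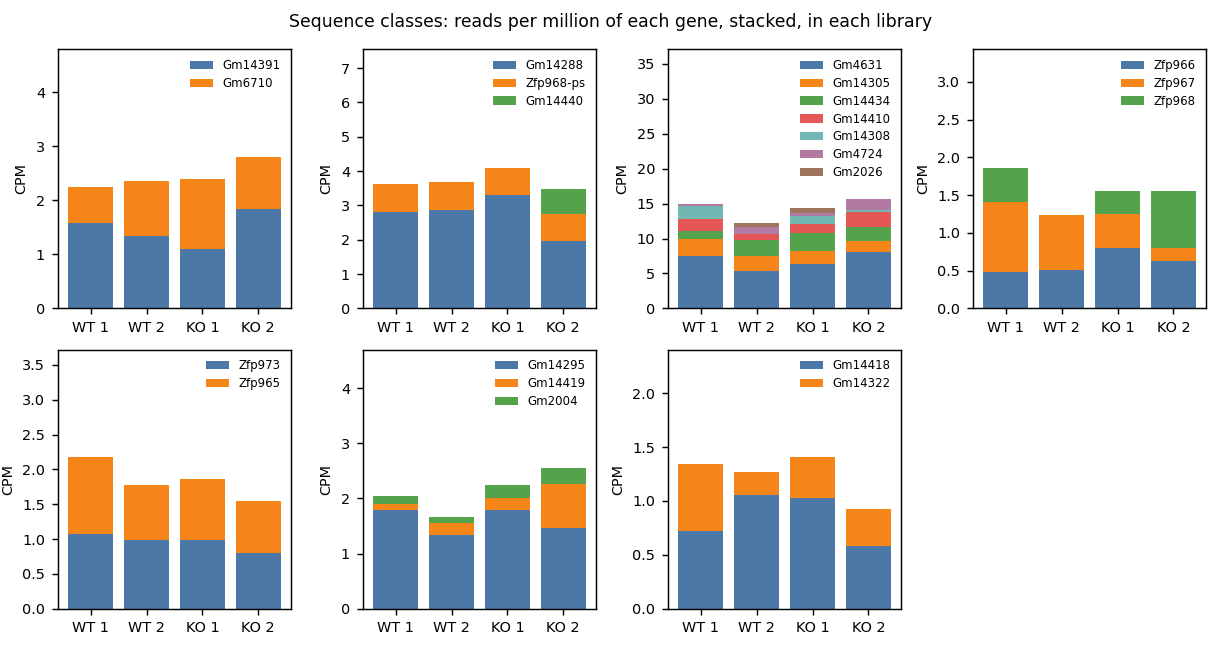
Level in CPM of the genes of 7 sequence classes, stacked, in each library (WT, HFD-WT; KO, HFD-KO); every axis starts at 0 and the class of 2210418O10Rik and Gm14296 has a plot of its own. Colours within a stack shift between libraries of the same group, as for Gm14308, Gm4724 and Gm2026 in the class of 7 genes, more than the heights of the stacks do. The heights rest on more reads and so have a smaller relative counting error.

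Genes that were empty in one library and clearly counted in another were more frequent in the cluster than elsewhere, a comparison chosen after the values had been seen and given without a test. Among members whose highest library held 10 to under 100 reads, 4 of 25 (16%) had 0 reads in some library, namely Zfp968, Gm2026, Gm14308 and Gm14440. The share was 1 of 142 (0.704%) for zinc finger genes elsewhere and 84 of 3276 (2.56%) for all genes outside the window. Libraries of the same group also lay further apart. The median absolute difference of log2(CPM + 0.5) between replicates over the 30 tested members was 0.26 in HFD-WT and 0.27 in HFD-KO livers. Over 271 zinc finger genes elsewhere with mean levels in the same range, 0.288 to 12.0 CPM, it was 0.16 and 0.19. Only the ends of this range were matched. Counting error from a different spread of levels within it was therefore not separated from the difference.

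In no class were Zfp970, Zfp971, Zfp931 and Gm14403, which shared at most 19.8% of their stretches with other members. Zfp970 (ENSMUSG00000078866, 177156526 to 177169922, plus strand) had 8.15 and 7.30 CPM in HFD-WT against 4.94 and 6.82 CPM in HFD-KO livers. Both HFD-KO libraries lay below both HFD-WT libraries, with a log2 fold change of -0.40 ± 0.19 SE (edgeR adjusted p = 0.598). Zfp971 had 1.31 and 1.09 CPM in HFD-WT against 0.949 and 0.963 CPM in HFD-KO livers, also without overlap (log2 fold change -0.33 ± 0.33 SE, edgeR adjusted p = 0.808). Both genes encode C2H2 proteins with 14 and 12 finger patterns, and they shared 17.3% and 19.8%. Zfp931 had 3.62 and 2.80 CPM in HFD-WT against 3.11 and 2.76 CPM in HFD-KO livers. Gm14403 had 2.66 and 2.22 CPM in HFD-WT against 2.24 and 1.80 CPM in HFD-KO livers. Among members with over 100 reads these shared the least sequence, 6.91% and 4.95%, and their groups overlapped.

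Gm14325, Gm14326, Gm14399 and Gm14327 shared 43.5% to 67.9% of their stretches, spread over several members, and were in no class either. Gm14325 had 3.62 and 2.73 CPM in HFD-WT against 3.0 and 3.10 CPM in HFD-KO livers. Gm14326 had 1.97 and 2.22 CPM in HFD-WT against 1.56 and 2.39 CPM in HFD-KO livers. Gm14399 had 13 and 13 reads in HFD-WT against 10 and 11 reads in HFD-KO livers. The 3 genes carry 14, 15 and 18 finger patterns, and in each the groups overlapped. Gm14327, without a finger pattern, had 5.005 and 3.49 CPM in HFD-WT against 4.37 and 4.02 CPM in HFD-KO livers (log2 fold change -0.02 ± 0.22 SE). Zfp972, which shared no stretch with another member, had 14 and 11 reads in HFD-WT against 11 and 4 reads in HFD-KO livers. These 2 genes overlap for 2445 bases on opposite strands, and since it is not stated whether the counting used strand, reads in the overlap cannot be told apart.

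**Figure D4:**
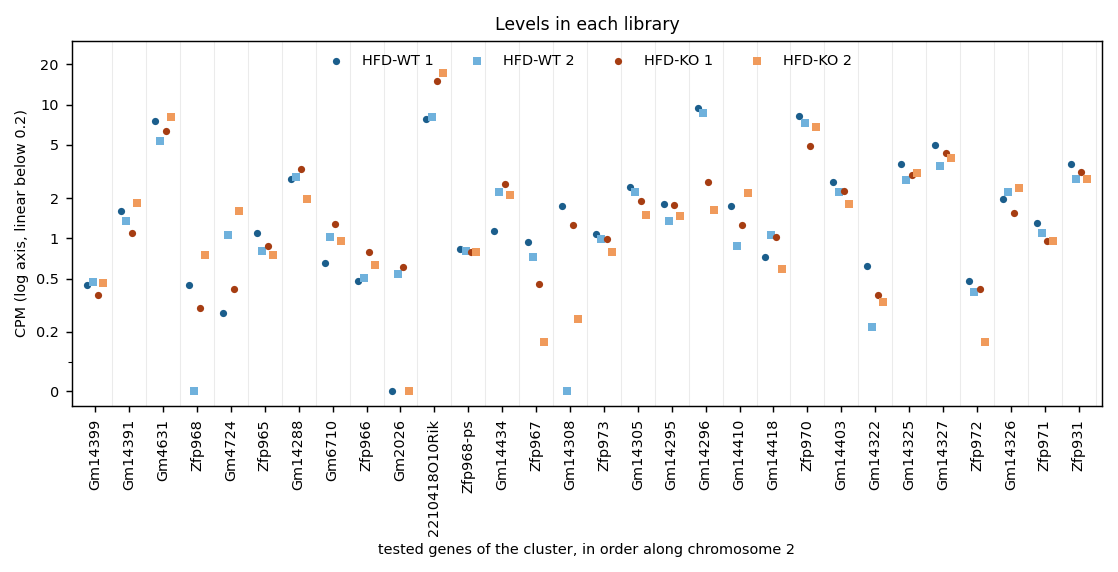
Level in CPM of the 30 tested members in each library, in order along chromosome 2 (circles, replicate 1; squares, replicate 2; blue, HFD-WT; red and orange, HFD-KO; log axis that turns linear below 0.2). The blue and red points of 2210418O10Rik and Gm14296, which chose the window, stand far apart. The groups also did not overlap for 6 of the 28 other members, against 40.8% of all genes tested. For Zfp968-ps, 1 of these 6, the gap is too small to stand out (log2 fold change -0.03). Zfp968, Gm2026 and Gm14308 have libraries at 0.

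Of the 30 members with enough reads to be tested, 28 did not choose the window. Among these, 0 had an adjusted p under 0.05 by edgeR, where 0.0771% of all 12967 genes tested did, 0.0540% as higher and 0.0231% as lower in HFD-KO livers, and the adjusted p values ran from 0.511 to 0.998. At an unadjusted p under 0.05 there was 1, Zfp967, which was lower, against 8.98% of all genes, 4.25% higher and 4.73% lower. By DESeq2, 0 of 27 members with an adjusted p were under 0.05, against 0.904% of all genes, and 0 of 38 had an unadjusted p under 0.05, against 3.91% of all genes. The libraries of the groups did not overlap for 6 of the 28 members, against 40.8% of all genes tested. These were Zfp966, which was higher in HFD-KO livers, and Zfp968-ps, Zfp967, Gm14305, Zfp970 and Zfp971, which were lower. The log2 fold changes were above 0 for 9 and below 0 for 19 members, with a median of -0.09 against 0.01 for all genes tested. They ran from -1.38 for Zfp967 to 1.18 for Zfp968, whose standard error was 1.01. With each library left out, Zfp967 ran from -2.28 to -0.86 and Zfp968 from 0.23 to 6.78, the last against an HFD-WT library with 0 reads, so it is no measure of size. The median absolute log2 fold change was 0.23 for the 19 members that shared at least 50% of their stretches and 0.16 for the other 9. The largest standard errors, 1.40 for Gm2026, 1.20 for Gm14308 and 1.01 for Zfp968, belonged to the 19. Counting error was therefore not separated from this difference.

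**Figure D5:**
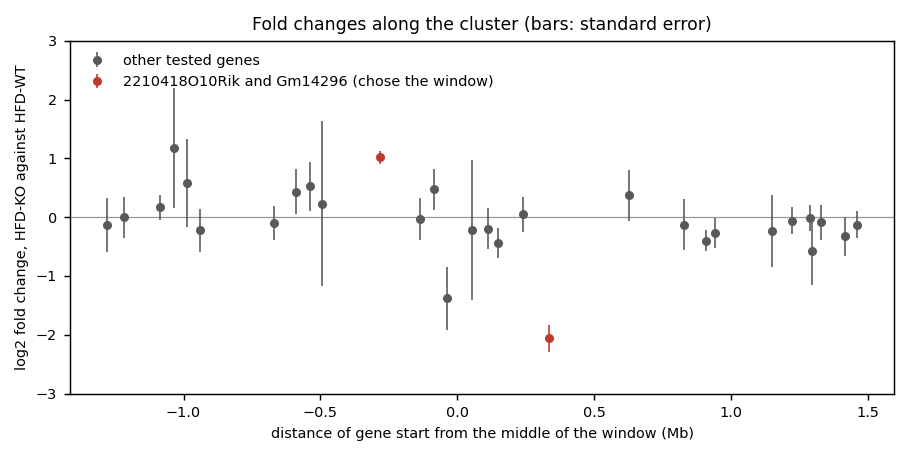
Log2 fold change (HFD-KO over HFD-WT livers) of the 30 tested members, by the distance of the gene start from the middle of the window in Mb, with standard errors as bars. 2210418O10Rik at 1.01 and Gm14296 at -2.06, in red, chose the window, and most of the other points have bars that cross 0.

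Summed over the cluster, the group means were alike. The 40 members together had 2115 and 1758 reads in HFD-WT against 1756 and 1674 reads in HFD-KO livers, which was 0.00653% to 0.00737% of the reads of a library. After scaling this was 68.4 ± 6.4 CPM (SD, n = 2) for HFD-WT against 68.4 ± 2.4 CPM for HFD-KO. Without 2210418O10Rik and Gm14296, which took 25.7% of the reads of all members, it was 51.5 ± 6.0 CPM against 50.2 ± 1.7 CPM. Levels per length were low. The tested members had a median of 0.479 RPKM, that is CPM divided by the exon length in kilobases, between 0.0874 for Gm2026 and 2.89 for Zfp970, while tested zinc finger genes elsewhere had a median of 1.01 RPKM and all genes tested 3.60 RPKM. Zfp970 was followed by 2210418O10Rik at 2.82 RPKM, Gm14327 at 2.69 RPKM and Gm14325 at 1.78 RPKM.

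The 10 members that were not tested had 1 to 34 reads in the 4 libraries together. Gm14419, Gm2004, Gm14440 and Gm14443 had the most, with 34, 20, 17 and 11 reads, and Phactr3 and Sycp2 followed with 4 each. At the edges of the window, the first member was Gm14444, starting at 174852034 with 1 read, and the last was Sycp2, starting at 177987086. Just outside lay Zfp831, starting at 174485327, with 1 and 4 reads in HFD-WT against 10 and 2 reads in HFD-KO livers, and Ppp1r3d, starting at 178052999, with 16 and 11 reads against 18 and 8 reads. Ppp1r3d encodes a glycogen-targeting subunit of protein phosphatase 1. The germ cell markers, looked at because Sycp2 is a meiotic gene, summed to at most 0.167 CPM in a library and 3 of the 6 had 0 reads.

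None of the listed partners of KRAB proteins passed the adjusted threshold. Trim28, the corepressor that KRAB boxes bind, had 60.1 and 54.1 CPM in HFD-WT against 56.4 and 63.7 CPM in HFD-KO livers (log2 fold change 0.07 ± 0.098 SE, edgeR adjusted p = 0.863). Setdb1, the histone H3 lysine 9 methyltransferase, had 23.7 and 21.6 CPM in HFD-WT against 22.1 and 22.1 CPM in HFD-KO livers (log2 fold change -0.03 ± 0.089 SE, edgeR adjusted p = 0.936). Of 25 genes of the KRAB corepressor machinery, 0 had an adjusted p under 0.05 in either direction, and 2 had an unadjusted p under 0.05, both higher in HFD-KO livers, a share near the 8.98% of all genes. Resf1, a factor of retroelement silencing that works with SETDB1, had 18.4 and 15.5 CPM in HFD-WT against 19.8 and 24.1 CPM in HFD-KO livers (log2 fold change 0.37 ± 0.13 SE, edgeR adjusted p = 0.473). Chd3, a chromatin remodeller of the NuRD complex, had 115.6 and 122 CPM in HFD-WT against 145 and 131 CPM in HFD-KO livers (log2 fold change 0.22 ± 0.087 SE, edgeR adjusted p = 0.516). The list had 18 log2 fold changes above 0 and 7 below, with a median of 0.08. Over all 12967 genes tested, 6685 were above 0 and 6282 below, with a median of 0.01.

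Zinc finger genes elsewhere and the chromosome around the cluster were examined beside it. For comparison, 0.0771% of all 12967 genes tested had an adjusted p under 0.05 by edgeR. At an unadjusted p under 0.05 by edgeR, 4.25% of all genes were higher and 4.73% lower. Of 341 tested genes outside the window whose symbol starts with Zfp, Zkscan or Zscan, 0 had an adjusted p under 0.05 by edgeR, 20 were higher and 1 was lower at an unadjusted p under 0.05, and the median log2 fold change was 0.08. Their groups did not overlap for 102 higher and 34 lower genes, against 20.5% and 20.3% of all genes tested. On the rest of chromosome 2, 0 of 987 tested genes had an adjusted p under 0.05, 27 were higher and 33 lower at an unadjusted p under 0.05, and the median log2 fold change was -0.0029. Within 5000000 bases on either side of the window, 0 of 66 tested genes had an adjusted p under 0.05, 1 was higher at an unadjusted p under 0.05, and the median log2 fold change was 0.02.

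Markers of the other cells of the liver differed between libraries. Of all genes tested, 20.5% were higher and 20.3% lower in HFD-KO livers without overlap between the groups. Macrophage markers, 9 genes, summed to 359 and 448 CPM in HFD-WT against 287 and 273 CPM in HFD-KO livers, with 7 of 9 lower without overlap. Stellate cell markers, 7 genes, summed to 348 and 387 CPM against 304 and 224 CPM, with 5 of 7 lower without overlap. B and plasma cell markers, 7 genes, summed to 18.5 and 15.2 CPM in HFD-WT against 124 and 17.4 CPM in HFD-KO livers, which set HFD-KO replicate 1 apart. Red blood cell markers, 5 genes, summed to 757 and 600.2 CPM against 810 and 1146 CPM, with 4 of 5 higher without overlap. Cholangiocyte markers, 5 genes, summed to 71.5 and 90.4 CPM against 59.4 and 50.02 CPM, with 1 of 5 lower without overlap, near the share of all genes. That gene, Spp1, made up most of the sum, with 64.3 and 83.9 CPM in HFD-WT against 53.8 and 42.8 CPM in HFD-KO livers. For Krt7, Krt19, Epcam and Sox9 the groups overlapped. Endothelial markers, 6 genes, summed to between 200 and 229 CPM, T and NK cell markers, 6 genes, to between 1.88 and 6.61 CPM, and neutrophil markers, 4 genes, to between 1.48 and 4.19 CPM. The macrophage and stellate cell sums were lower in both HFD-KO libraries, as Gm14296 was, and the red blood cell sum was higher, as 2210418O10Rik was. The cholangiocyte sum was also lower in both, but through Spp1. The part of these cells in the levels of the cluster was not tested.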

How the data were processed

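The authors made directional libraries from TRIzol-extracted liver RNA, sequenced paired ends, trimmed and aligned the reads with the alignment tool of MGI Tech and counted them per gene in Partek Genomics Suite with GENCODE annotation. Versions, whether strand was used and what became of reads with several matches are not given in the sources used here. The methods name mm10 and the labels name GRCm39 and mm10. The positions in the table are those of GRCm39, and 0 of the 40 members stood at their position in GENCODE M21 (GRCm38), from which only transcript sequences were taken.

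The tested values are the deposited counts, whole numbers of reads per gene before any normalization. The authors' RPKM values were used to derive exon lengths. The deposited TPM values and the deposited CPM values, a score on an adjusted library size, were not used. The CPM and RPKM printed were computed from the counts with TMM-adjusted library sizes.

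The test was the two-sided quasi-likelihood test of edgeR 4.0.16 (R 4.3.3), HFD-KO over HFD-WT, adjusted by Benjamini-Hochberg over the 12967 genes that filterByExpr left (common dispersion as a coefficient of variation, 0.102). The procedure was tested on simulated data. DESeq2 1.42.0 was an alternative, as were its size factors, the library size alone, no filter, a replicate block, leaving out each library, a narrower window and summed sequence classes.

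The members and gene lists were chosen with earlier results of these data known. All tested members were named, with library values for the pair that chose the window and the 20 others of highest mean CPM. Further named were the genes at the window's edges, up to 5 untested members of most reads (6 with a tie), Trim28, Setdb1, corepressor genes with an unadjusted p under 0.05, and Adarb1. Shared stretches and patterns were found with Python 3.11.15, numpy 2.4.6 and pandas 2.3.3, intervals with scipy 1.17.1 and plots with matplotlib 3.10.9.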

Additional observations from a re-analysis of the deposited data

How the results depend on the processing

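The members called by edgeR at an adjusted p under 0.05, 1 higher and 1 lower, were 2210418O10Rik and Gm14296, which chose the window, so these counts restate that choice and support nothing. With the library size alone as scaling it called 0 and 0, and with sequence classes summed, an alternative chosen after the values had been seen, 0 and 0, because both genes then form 1 feature. The members called higher ran from 0 to 2 and those called lower from 0 to 1 when each library was left out: both calls were lost without either HFD-WT library, and Gm14440 was also called higher without HFD-KO replicate 1. With a replicate block it called 0 higher and 1 lower member, and 12 genes higher and 8 lower over the whole table against 7 and 3. The replicate numbers appear to be only names (correlation of deviations -0.08), and the groups have 2 numbers in common. Where a library was left out, the lone library of its group was assumed to vary like the other group. A narrower window and the size factors of DESeq2 left 1 and 1. The counts over all genes were 81 and 81 with no filter, 56 and 61 with DESeq2, 4 and 2 with the library size alone, 0 and 0 without HFD-WT replicate 2, 376 and 329 without HFD-KO replicate 1 and 226 and 185 without HFD-KO replicate 2. The log2 fold change of Adarb1 passed the threshold at -1.18 with no filter, -1.17 with DESeq2 and -1.19 with the replicate block, and ran from -1.51 to -0.89 with each library left out, passing it without either HFD-KO library. Zinc finger genes elsewhere called higher were 1 with no filter, 2 with DESeq2 and 0 to 5 with each library left out, and those called lower 0 to 2. Corepressor genes called higher were 0 to 1. Among the 28 other named members, 16 changed sign under some alternative, in 27 of 252 values, and none passed the threshold under any of them. Gm14308 stood at 0.12 with the replicate block.

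With each library left out, the log2 fold changes that crossed 0 ran from -0.28 to 0.001 for Gm14399, -0.41 to 0.33 for Gm14391, -0.061 to 0.43 for Gm4631, -0.65 to 1.84 for Gm4724, -0.44 to 0.020 for Zfp965, -0.52 to 0.22 for Gm14288, -5.87 to 6.06 for Gm2026, -1.81 to 7.30 for Gm14308, -0.14 to 0.27 for Gm14295, -0.078 to 0.96 for Gm14410, -0.59 to 0.21 for Gm14418, -0.79 to 0.70 for Gm14322, -0.25 to 0.16 for Gm14325, -0.25 to 0.26 for Gm14327, -0.42 to 0.19 for Gm14326 and -0.30 to 0.065 for Zfp931. Of the members that did not cross 0, the widest ranges beside Zfp967 and Zfp968 were 0.060 to 1.03 for Gm14434, -1.38 to -0.082 for Zfp972 and 0.14 to 0.78 for Gm6710, and Zfp970 ran from -0.65 to -0.18. The limits are 2 libraries per group, fewer than 100 reads for many members and sequence that a single 100-base read cannot place. The reads came as paired ends, and whether the other end of a pair could place such a read was not examined.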

Other observations

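The window also listed 8 genes with 0 reads in every library. They were Edn3, which encodes the peptide endothelin 3, and Gm11007, Zfp969, Gm2007, Gm11009, Gm14408, Gm14401 and Gm14406. By counting error alone, a count of 0 at the depth of these libraries allows a level of up to 0.105 to 0.123 CPM in a library. The sequence that these 8 genes share with other genes was not tested. Reads of shared sequence that were counted on another gene are not covered by the limit.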
